A study of Marmota monax with 203 samples.

Results

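The genes described here are 193 liver genes with less mRNA in woodchucks given woodchuck interferon-α (wIFN-α) than in placebo animals. Their mean mRNA, as a share of reads, was lower at all 5 biopsy times under treatment. The reads of each biopsy were scaled to a common total (CPM), and at each week the mean of the wIFN-α animals was divided by the mean of the placebo animals on the log2 scale, with 0.5 CPM added to both. Of 17587 genes with reads, 10223 had a placebo mean of 5 CPM or more at all 5 weeks, 4211 of these were lower in wIFN-α animals every time, and the 200 with the lowest mean ratio were taken. Symbols of large enzyme and ribosomal families were left out by their first letters, which removed 7 genes (CYP7A1, CYP2A7, RPS6KA2, CYP2A13, CYP2A6, CYP2U1 and CYP2D7P1). The members were thus chosen by the measured ratios under treatment, which are given as a description, with no test.

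Adult woodchucks (Marmota monax) with chronic woodchuck hepatitis virus (WHV) infection received placebo or wIFN-α 3 times a week, with 12 animals in each arm at the start. The wIFN-α animals were biopsied under 20 µg at weeks 0 and 3 and under 100 µg at weeks 7, 11 and 15, in each case 6 h after a dose. Week -3 preceded treatment, and weeks 19 and 23 followed it. Animal M1004, which the study set aside as probably clearing the virus by itself, was left out of the wIFN-α group, so that placebo and wIFN-α biopsies numbered 12 and 11 at weeks -3 and 0, 12 and 9 at weeks 3 and 7, 10 and 8 at week 11, 9 and 8 at week 15, 5 and 6 at week 19, and 9 and 6 at week 23. The animals were infected as newborns, their carrier state was established about 1 year later, and both sexes were present in each arm.

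Type I interferon binds a receptor found on nearly all cells and acts through JAK kinases and STAT proteins, which form a complex that switches on interferon-stimulated genes. Genes that fall under interferon are less uniform, and in liver they can belong to hepatocytes, which carry out most intermediary metabolism, to stellate cells and fibroblasts, which make collagen, or to the endothelium of the sinusoids. In RNA from whole biopsies, fewer cells of a type and less RNA per cell cannot be told apart.

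Several biopsies stood apart before any comparison. Reads on genes ranged from 12072840 to 84805845 per biopsy, and 24 of the 149 biopsies used held more than 1% of their reads on a list of 25 skeletal muscle genes. The week -3 biopsies of F1016 (placebo, 16.6% muscle reads) and F1018 (later wIFN-α, 16.9%) went against the label of liver. In both, all 25 muscle genes lay above and all 18 periportal hepatocyte genes below the other week -3 biopsies that were poor in muscle. Of 22 pericentral hepatocyte genes 15 and 14 lay below them and 2 and 3 above. ETNK2, an ethanolamine kinase, stood at 0.368 CPM in F1016 and 0.752 CPM in F1018, where those other biopsies held 70.0 to 248 CPM. Results that rest on such biopsies are given with and without them. The wIFN-α biopsy of F1013 at week 3 also stood apart, since type I interferon-stimulated genes took 0.409% of its reads, where the other 8 wIFN-α biopsies of that week had 2.0% or more.

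Across the 193 members the median log2 ratio was -1.21 at week 0, -0.76 at week 3, -1.23 at week 7, -1.07 at week 11 and -1.18 at week 15. Over all 10223 genes with enough placebo signal the medians were -0.18, -0.05, -0.12, -0.07 and -0.09. The week 3 median of the members was -0.93 without F1013. These ratios rest on CPM. With the TMM scaling of edgeR the member medians were -1.10, -0.77, -1.21, -1.06 and -1.17. Members below 0 numbered 191, 192, 192, 193 and 193 of 193. Over all genes tested in edgeR the medians were -0.01, -0.04, -0.03, -0.03 and -0.01. These are not the same set as the 10223 genes, so how much of the difference came from scaling was not tested. The mean ratio was lower under 100 µg than under 20 µg in 141 members and higher in 52. Without F1013 at week 3 it was lower in 129, and against week 0 alone in 83, so that the count rested on week 3. For all genes the matching share is not given here, so these counts are a description and are not read as particular to the members. Because dose and time on treatment rose together, they cannot be told apart.

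For each biopsy the median was taken, over the members, of the log2 ratio to the gene's median in the placebo animals at week -3. The placebo medians of this level stayed between -0.25 and 0.07 at the 8 times. The wIFN-α medians were -0.07 at week -3, -1.41 at week 0, -1.04 at week 3, -1.33 at week 7, -1.13 at week 11, -1.02 at week 15, -0.13 at week 19 and -0.09 at week 23. The arms overlapped before and after treatment and at week 3, and they did not overlap at weeks 0, 7, 11 and 15. At week 0 the placebo animals stood slightly low as well, between -0.40 and 0.086 with a median of -0.25.

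**Figure D1:**
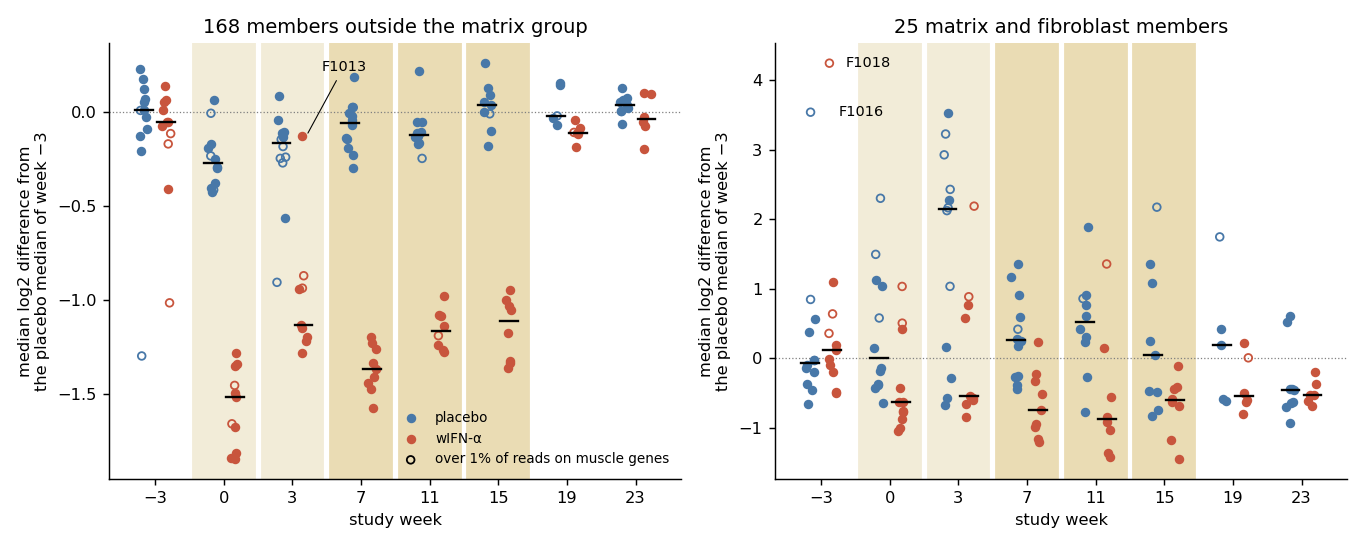
Median log2 difference from the week -3 placebo median (y axes) by study week (x axes) in each biopsy, for the 168 members outside the matrix group (left) and the 25 matrix and fibroblast members (right). Points are biopsies (blue placebo, red wIFN-α, open where over 1% of reads lay on muscle genes), bars are group medians, and shading marks the weeks under 20 µg (light) and 100 µg (dark). On the left the wIFN-α medians fall to -1.52 at week 0 and -1.11 at week 15 with F1013 at -0.13 at week 3, while on the right the arms overlap every week.

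A gene was called where edgeR (quasi-likelihood, Benjamini-Hochberg over all genes) gave an adjusted p under 0.05 with a change of more than 1.5-fold. On this rule 149 members were called lower at week 0, where 8.15% of all genes tested were. At week 3 the count was 101 against a background of 3.54%, at week 7 it was 181 against 10.1%, at week 11 it was 167 against 7.98%, and at week 15 it was 172 against 8.83%. No member was called higher, where 10.3%, 7.24%, 11.4%, 12.6% and 13.4% of genes were. Since these contrasts chose the members, the counts are printed only beside that background and nothing is read from them. Every wIFN-α biopsy lay below every placebo biopsy for 46 members at week 0 (1.97% of genes with a placebo mean of 5 CPM or more), 1 at week 3 (0.0364%), 100 at week 7 (5.38%), 72 at week 11 (3.02%) and 103 at week 15 (5.8%). KBTBD6, an adaptor of a cullin ubiquitin ligase, was the single member without overlap at all 5 weeks. For 58 members the arms overlapped every time. Shares of all genes over the 5 weeks together are not given here, so the last counts, of KBTBD6 and of these members, are a description only.

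Sorted by known function after the members were seen, 98 of the 193 fell into 6 role groups and 95 were given none. The groups were matrix and fibroblast genes (25), endothelial genes (6), transcriptional regulators (17), receptors and ligands (18), metabolic enzymes (19), and transporters and channels (13). At week 3 the matrix genes had the lowest median of the 6 groups, at -1.46, where the other 5 lay between -0.77 and -0.67.

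**Figure D2:**
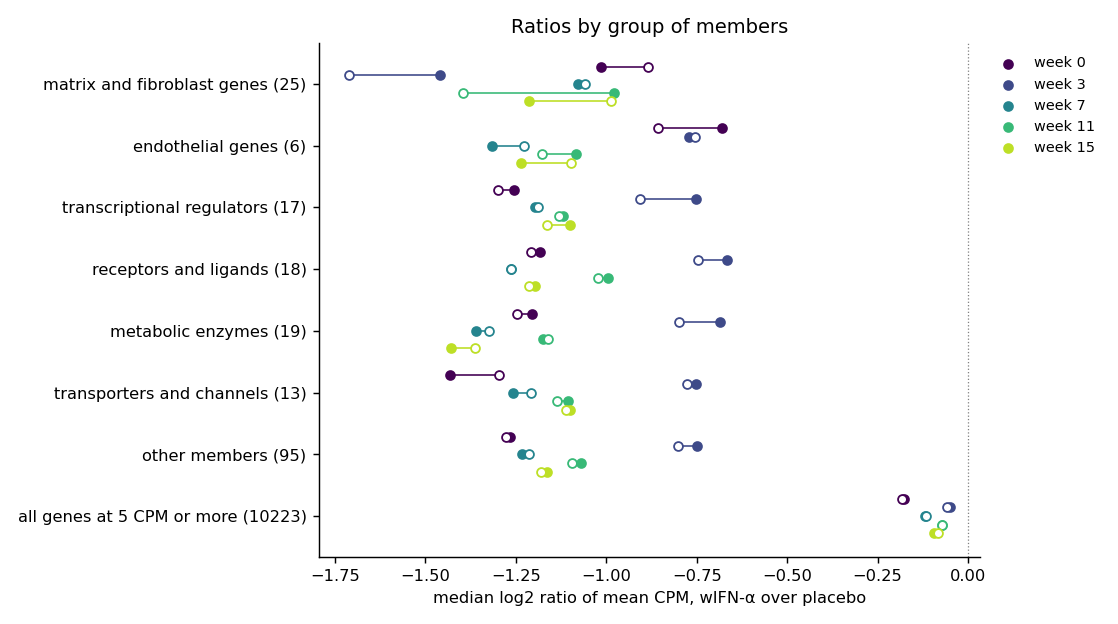
Median log2 ratio of wIFN-α to placebo mean CPM (x axis) for each role group and for all genes at 5 CPM or more (y axis, number of genes in brackets), with 1 colour for each treatment week. Filled points use all biopsies and open points leave out the muscle-rich ones. At week 3 the matrix genes lie at -1.46 with all biopsies and -1.71 without the muscle-rich ones, and the other groups between -0.77 and -0.67 with all biopsies.

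The transcriptional regulators had median ratios of -1.25, -0.75, -1.20, -1.12 and -1.10 at weeks 0, 3, 7, 11 and 15. The lowest mean ratios were those of CUX2 (-1.83), a homeobox factor with sex-biased expression in rodent liver, BEND3 (-1.80), a repressor at heterochromatin, and ZNF395 (-1.69), a zinc finger protein. ZNF395 ranged from 36.6 to 104 CPM with a median of 69.1 in placebo animals at week 0, and from 9.86 to 21.5 with a median of 13.6 in wIFN-α animals. At week 15 it ranged from 57.2 to 200.2 with a median of 120.1 in placebo animals, and from 21 to 54.5 with a median of 41.1 in wIFN-α animals. The ranges of ZNF395 were apart both times. BEND3 at week 15 ranged from 32.5 to 119.7 CPM with a median of 67.8 in placebo animals and from 5.22 to 33.8 with a median of 19.2 in wIFN-α animals, so that only the ends of the ranges overlapped. CUX2 at week 15 ranged from 4.17 to 32 CPM (median 12.2) in placebo animals and from 1.13 to 9.45 (median 4.54) in wIFN-α animals, and its arms overlapped.

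A list of liver transcription factors and nuclear receptors holds 4 members. NR1I3, the constitutive androstane receptor that senses foreign compounds, had at week 15 a range of 45.1 to 94.5 CPM (median 74.2) in placebo animals and of 22.6 to 43.9 (median 35.7) in wIFN-α animals, with no overlap. MLXIPL, the carbohydrate response factor ChREBP, had at week 0 a range of 86.2 to 195 CPM (median 125) against 35.7 to 79.1 (median 61.4), also with no overlap. At week 3 both overlapped: 0 of the 9 wIFN-α biopsies lay below the lowest placebo biopsy for NR1I3, and 1 for MLXIPL. NR2F6, an orphan nuclear receptor, had a mean ratio of -0.90, and PPARGC1B, a coactivator of mitochondrial genes, one of -1.0. Of the 58 genes of that list that were tested, 11, 3, 16, 12 and 13 were called lower at weeks 0, 3, 7, 11 and 15, and 4, 4, 8, 5 and 4 were called higher. This list and those that follow contain members, and their counts stand beside the background given above, which at the 5 weeks was 8.15%, 3.54%, 10.1%, 7.98% and 8.83% of all genes lower and 10.3%, 7.24%, 11.4%, 12.6% and 13.4% higher. HLF and TEF, which belong to the PAR bZIP factors that follow the circadian clock, were members as well, with mean ratios of -1.26 and -1.07. Of the 19 genes of the clock and PAR bZIP list, 2, 2, 10, 7 and 8 were called lower at the 5 weeks and 2, 0, 2, 3 and 3 higher.

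Receptors and ligands had median ratios of -1.18, -0.67, -1.26, -1.0 and -1.20. The lowest mean ratio in the group was that of TNFSF4 (-1.73), the OX40 ligand that costimulates T cells. Its placebo values at week 0 ran from 12.1 to 53.8 CPM with a median of 35, and its wIFN-α values from 0.775 to 16.4 with a median of 5.10. At week 15 they ran from 42.3 to 72.4 (median 62.6) against 8.45 to 18.7 (median 16.4). The arms of TNFSF4 overlapped at the ends at week 0 and were apart at week 15. PTGER3, the EP3 receptor of prostaglandin E2, ran at week 15 from 16.4 to 34.7 CPM (median 30.1) in placebo animals and from 3.45 to 9.87 (median 6.70) in wIFN-α animals, without overlap.

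Both α1-adrenergic receptors that hepatocytes use to answer catecholamines were members. ADRA1B ran at week 15 from 19.6 to 28.9 CPM (median 23.8) in placebo animals and from 8.12 to 13.4 (median 10.8) in wIFN-α animals. ADRA1A ran from 33.6 to 64.7 (median 42.1) against 13.4 to 28.2 (median 17.3). Neither receptor's arms overlapped at week 15. TGFBR3, the coreceptor betaglycan, ran from 8.11 to 21.4 CPM (median 9.66) against 3.52 to 4.97 (median 3.82), again without overlap. Of the growth factor and cytokine receptors tested (47 at week 0 and 49 later), 6, 2, 12, 8 and 8 were called lower and 7, 5, 6, 5 and 9 higher.

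**Figure D3:**
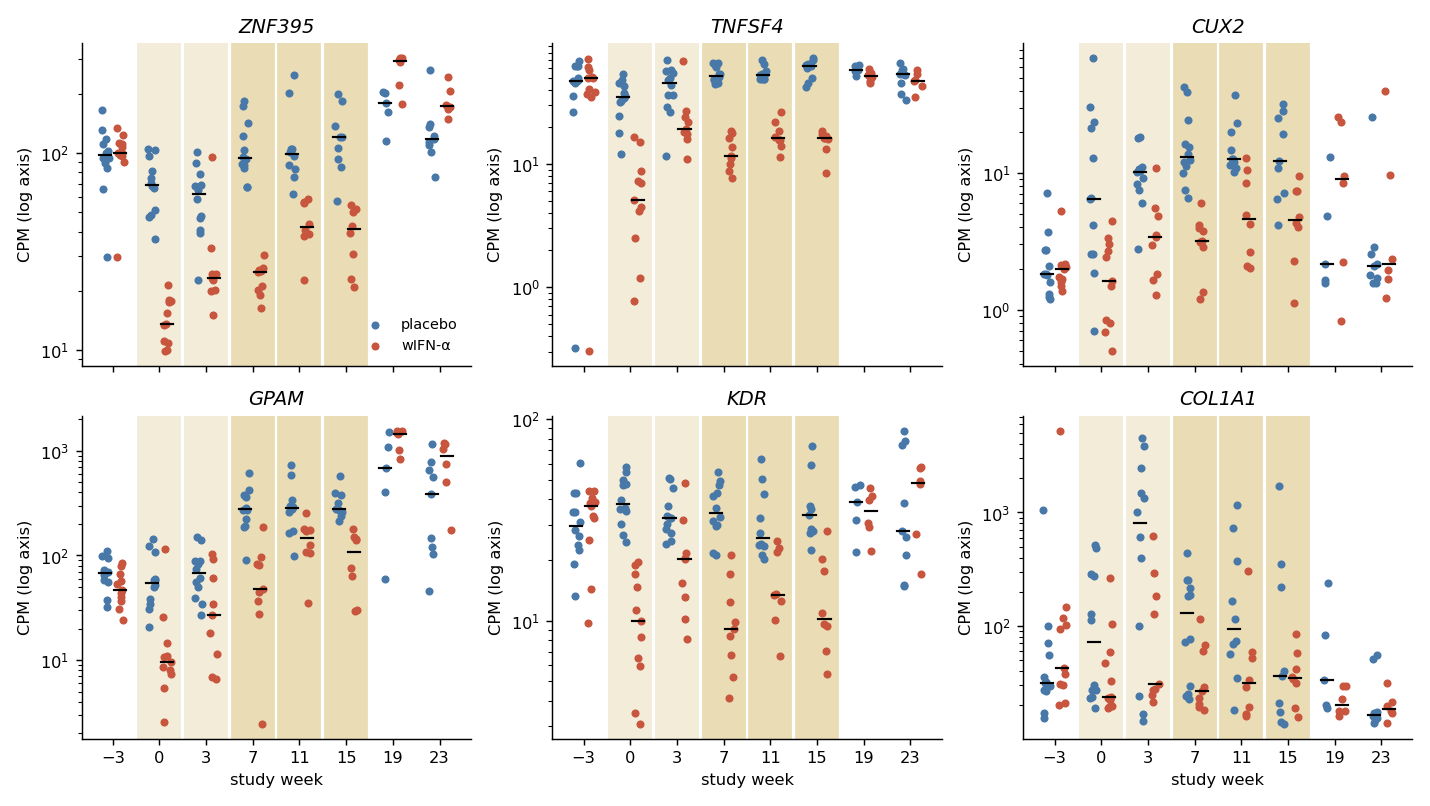
CPM on log axes (y) of ZNF395, TNFSF4, CUX2, GPAM, KDR and COL1A1 in each biopsy by study week (x), with blue points for placebo, red points for wIFN-α, bars for medians and shading for the weeks under 20 µg (light) and 100 µg (dark). ZNF395 and TNFSF4 separate at week 15, with wIFN-α values up to 54.5 and 18.7 CPM below placebo values from 57.2 and 42.3 CPM, while COL1A1 does not, with placebo values from 13.6 to 1727 CPM.

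The metabolic enzymes had median ratios of -1.21, -0.68, -1.36, -1.17 and -1.43. GPAM, which catalyses the first step of glycerolipid synthesis in mitochondria, had a mean ratio of -1.51. At week 15 it ran from 215 to 577 CPM (median 279.8) in placebo animals and from 29.2 to 180.0 (median 108) in wIFN-α animals, without overlap. PDXP, a phosphatase of pyridoxal phosphate, ran at week 15 from 10.6 to 17.5 CPM (median 13.7) against 1.97 to 3.66 (median 2.61), and GLYCTK, the glycerate kinase, from 73.6 to 158 (median 144) against 17.5 to 60.7 (median 39.5). The arms of both were apart.

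Among the genes of amino acid breakdown 3 were members. HAL, which removes ammonia from histidine, ran at week 15 from 32.7 to 182 CPM (median 90.1) in placebo animals and from 10.9 to 34.8 (median 27.2) in wIFN-α animals. ASPG, an asparaginase, ran from 71.1 to 128 (median 88.8) against 14.7 to 39.6 (median 29.6), and at week 3 its ratio was -0.02. The week 15 ranges of HAL met at their ends, and those of ASPG were apart. PRODH, the proline dehydrogenase, had a mean ratio of -0.90. Of 51 genes on that list, 0, 0, 8, 9 and 7 were called lower at the 5 weeks, and 1 was called higher at week 15. PCK1, the rate-limiting enzyme of gluconeogenesis, was also a member, with 361 to 1607 CPM (median 892) in placebo animals and 238 to 986 (median 473) in wIFN-α animals at week 15. Its arms overlapped widely. The members nearest to the threshold were PCK1 (-0.897), PRODH (-0.896) and ADARB1 (-0.896), and the next genes outside it were SENP1 (-0.895), ZADH2 (-0.893) and AGXT2L1 (-0.889).

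Transporters and channels had median ratios of -1.43, -0.75, -1.26, -1.10 and -1.10. SLC43A1, a carrier of branched-chain and other neutral amino acids, ran at week 0 from 19.5 to 48.4 CPM (median 31.3) in placebo animals and from 4.44 to 13.3 (median 6.40) in wIFN-α animals. At week 15 it ran from 18.2 to 39.4 (median 25.8) against 7.45 to 14.7 (median 10.2), and the arms were apart both times. SLC30A10, an exporter of manganese, had the largest week 0 ratio relative to the mean of the later weeks (2.31 times), with 10 to 39.3 CPM (median 18.5) against 1.64 to 15 (median 3.97) at week 0. Its arms overlapped at week 15, where they ran from 3.95 to 24.7 (median 5.73) and from 2.11 to 7.91 (median 4.55). SEMA4G (2.22 times), ZNF503-AS2 (1.99), FLVCR2 (1.93) and FPGT (1.93) followed in this order. The solute carriers as a family, with 198 genes of which 8 were members, had a median mean ratio of -0.18, and after SLC43A1 the lowest of them were SLC2A11 (-1.20), SLC25A33 (-1.15) and SLC25A35 (-1.03).

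The members in no role group had median ratios of -1.27, -0.75, -1.23, -1.07 and -1.16. They include AKAP12 (mean ratio -1.74), an anchor of protein kinase A, GAS7 (-1.61) and ARHGEF26 (-1.55). AKAP12 ran at week 15 from 8.12 to 18.4 CPM (median 16.5) in placebo animals and from 1.77 to 6.61 (median 3.52) in wIFN-α animals, and ARHGEF26 from 32.7 to 78.8 (median 50.1) against 7.83 to 23.8 (median 12.8). The arms of AKAP12 and ARHGEF26 did not overlap at that time. LOC100505974, also in no role group, had the lowest mean ratio of all members (-2.37), with 8.10 to 43.9 CPM (median 21.8) in placebo animals and 0.451 to 5.32 (median 3.04) in wIFN-α animals at week 15. RNF144A, a ubiquitin ligase, had -1.55, LCN12, a lipocalin, -1.60, and TMEM26, C9orf71, LOC100506776 and LOC338862, whose function is little known, had -1.75, -1.57, -1.73 and -1.52. Among the enzymes, UST (-1.54), which sulfates uronic acid residues of glycosaminoglycans, completes the 20 lowest with members named above or below. By symbol family, the next lowest zinc finger genes were ZNF385B (-1.41), ZNF441 (-1.03) and ZNF503-AS2 (-0.91), and the next lowest transmembrane protein genes were TMEM53 (-1.40), TMEM25 (-1.08) and TMEM150A (-1.08). The members of the FAM symbols were FAM171A1 (-1.40), FAM20C (-1.32) and FAM83F (-1.31).

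Endothelial members had median ratios of -0.68, -0.77, -1.32, -1.08 and -1.24. KDR, the main receptor of vascular endothelial growth factor, ran at week 0 from 24.6 to 58.0 CPM (median 38.0) in placebo animals and from 3.08 to 19.6 (median 10) in wIFN-α animals, without overlap. At week 15 it ran from 22.3 to 73.4 (median 33.6) against 5.44 to 27.9 (median 10.3), with some overlap. EMCN, the sialoglycoprotein endomucin, ran at week 15 from 5.84 to 22 CPM (median 6.58) against 1.97 to 5.28 (median 2.43). Of the 26 genes on the list of sinusoidal endothelium, 6, 2, 5, 2 and 6 were called lower at the 5 weeks and 2, 1, 2, 2 and 2 higher. KDR and EMCN are the only members on that list. Over its 19 genes with enough placebo signal the median mean ratio was -0.15, beside -0.11 for all such genes, so the member medians do not stand for the list.

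The matrix and fibroblast genes had median ratios of -1.02, -1.46, -1.08, -0.98 and -1.21, and 6 of the 21 collagen genes with enough placebo signal were members. COL1A1 and COL1A2, the chains of type I collagen, had mean ratios of -2.25 and -2.08, and MMP2, a gelatinase, one of -1.93. COL8A1, a short-chain collagen, had one of -1.29. The placebo medians of COL1A1 were 71.6, 814.6, 129, 94.6 and 35.8 CPM at weeks 0, 3, 7, 11 and 15, beside wIFN-α medians of 23.4, 30.3, 26.3, 31.1 and 34.6. Of the 25 matrix genes 1, 0, 4, 1 and 2 were free of overlap at the 5 weeks, where the shares of all genes were 1.97%, 0.0364%, 5.38%, 3.02% and 5.8%. At week 15 COL1A1 ran from 13.6 to 1727 CPM in placebo animals and from 15.7 to 84.1 in wIFN-α animals, and 3 of the 9 placebo biopsies lay above every wIFN-α biopsy. At week 3 it ran from 14.4 to 4574 CPM against 21.2 to 619.3, and 6 of the 12 placebo biopsies lay above every wIFN-α biopsy. COL3A1, the chain of type III collagen, ran at week 15 from 146 to 1555 CPM (median 259) in placebo animals and from 111 to 251 (median 184) in wIFN-α animals, with overlap. CD248, a surface protein of fibroblasts and pericytes, ran at week 0 from 13.1 to 35.1 CPM (median 24.1) against 1.83 to 13.3 (median 8.22), with overlap only at the ends. At weeks 3, 7, 11 and 15 its wIFN-α biopsies below the lowest placebo biopsy numbered 3, 6, 4 and 5.

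Muscle moved with these matrix genes. At week 3, 6 of the 12 placebo biopsies were rich in muscle, and the median level of the matrix genes was 2.15 in placebo and -0.54 in wIFN-α animals. Without the muscle-rich biopsies the median ratios of the matrix genes were -0.88, -1.71, -1.06, -1.40 and -0.99, so the week 3 value was lower still. All 193 members kept ratios under 0 at all 5 weeks without these biopsies. At week -3, COL1A1 stood at 1059 CPM in F1016 and 5292 CPM in F1018, where the other biopsies poor in muscle held 15.3 to 147.5 CPM. Of the 25 matrix genes 22 in F1016 and 22 in F1018 lay above those biopsies, while 14 and 15 of the 19 metabolic enzymes lay below them. On the list of stellate cells and fibroblasts, with 25 genes, 3, 4, 6, 3 and 4 were called lower at the treatment weeks and 1, 0, 1, 0 and 1 higher. UNC45B, a myosin chaperone of muscle, had the smallest week 0 ratio relative to the later weeks (0.12 times), followed by CHM (0.14), ZBTB16 (0.15), SPARCL1 (0.28) and C8orf22 (0.36).

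**Figure D4:**
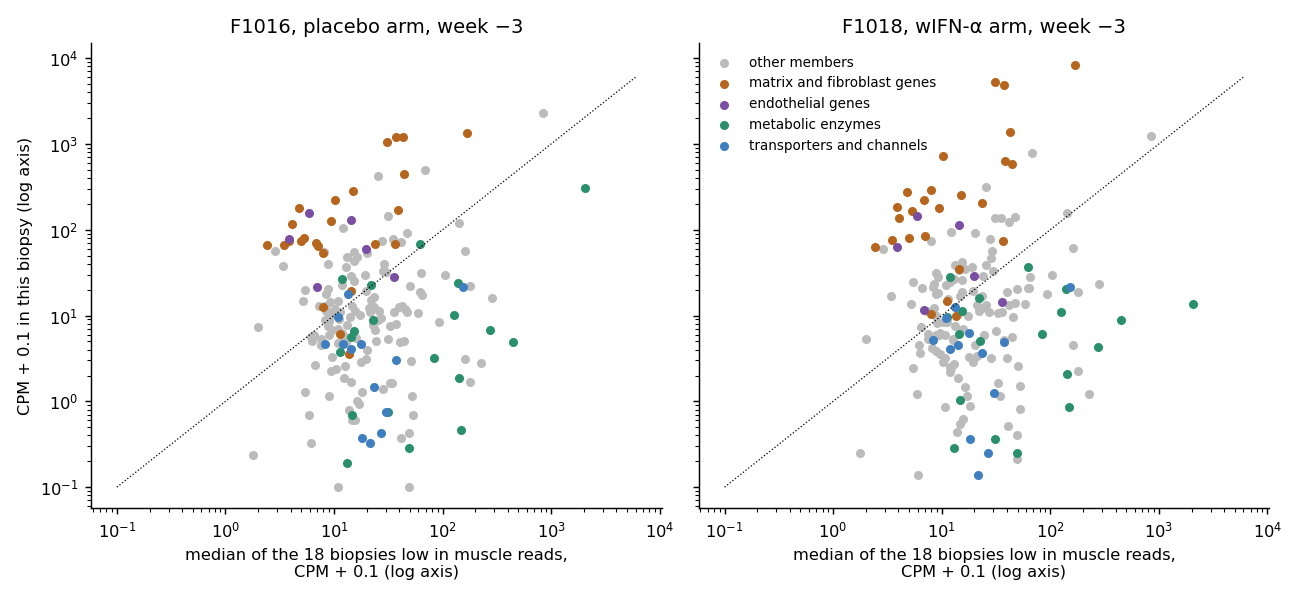
CPM + 0.1 of each member in the week -3 biopsies of F1016 (left) and F1018 (right, both y axes logarithmic) against the median of the 18 biopsies of that week low in muscle reads (x axes, logarithmic), coloured by role group, where the dotted line marks equal values. Matrix genes lie mostly above the line and metabolic enzymes mostly below it; against the full range of the 18 biopsies, 22 of 25 matrix genes were above in each, and 14 and 15 of 19 enzymes below.

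Between animals at week -3 the median standard deviation of log2 CPM was 0.78 for the members and 0.37 for all genes. It was 1.36 for the matrix genes, 1.17 for the metabolic enzymes, 0.85 for the transporters and channels, 0.81 for the endothelial genes, 0.64 for receptors and ligands and 0.50 for the transcriptional regulators. Without the muscle-rich biopsies these values were 0.43 and 0.26, and in the 6 groups 0.62, 0.43, 0.55, 0.55, 0.41 and 0.33. Among the members with the most reads, CHM, a Rab escort protein, ran at week 15 from 877 to 4848 CPM (median 1353) in placebo animals and from 579 to 3582 (median 759) in wIFN-α animals. CHM fell into low and high animals, with placebo animals M1001, M1005 and F1015 at 4132, 4151 and 4848 CPM, F1020 at 3582 in the wIFN-α arm, and the next animal at 1772.

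Animal M1004 and the weeks outside treatment were not used to choose the members. In M1004 the median change of the members from its own week -3 biopsy was -1.24 at week 0, -0.94 at week 3, -1.24 at week 7, -1.04 at week 11, -1.0 at week 15 and -0.07 at week 19. In the placebo animals the same change lay between -0.46 and 0.23 at week 0, between -0.91 and 0.64 at week 3, between -0.37 and 0.78 at week 7, between -0.40 and 0.54 at week 11, and between -0.18 and 0.71 at week 15. M1004 was below the placebo range at each treatment week, by little at week 3, and at week 19 it lay just under the -0.05 of the lowest of 5 placebo animals. The placebo biopsies of the treatment weeks were themselves used to choose the members. At those weeks only the change of M1004 from its own week -3 is free of that choice, and its place against the placebo range is a description. Members lower than before by more than 1.5-fold numbered 148 of 193 at week 0, 139 at week 3, 155 at week 7, 132 at week 11, 137 at week 15 and 40 at week 19, where the share of all genes with enough placebo signal was 14%, 10.1%, 14.6%, 14%, 11.6% and 6.57%. This is 1 animal, so the differences have no test. The upper ends of the placebo ranges were those of F1016, whose week -3 biopsy held 16.6% muscle reads. The lower end at week 3 was that of F1021, whose biopsy of that week held 13.6% muscle reads, and the next lowest placebo animal was M1001 at -0.32.

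By role, the members moved unequally in M1004. ZNF395 went from 149 CPM at week -3 to 28.9 at week 0, 30.4 at week 7, 65.1 at week 15 and 274 at week 19, and TNFSF4 from 62.6 to 7.82, 9.45, 18.4 and 35.6. COL1A1 went the other way, from 18.6 CPM at week -3 to 269 at week 0, 234 at week 7 and 32.2 at week 15. Muscle genes took 1.33% of the reads of M1004 at week 0 and 2.17% at week 11, and 0.044% at week 7, where COL1A1 stood at 234 CPM. Of the 25 matrix genes 7, 24, 9, 5 and 13 were below their own week -3 value at weeks 0, 3, 7, 11 and 15. Of the 17 transcriptional regulators 17, 16, 17, 17 and 16 were, of the 18 receptors and ligands 18, 18, 18, 17 and 17, and of the 19 metabolic enzymes 18, 18, 19, 18 and 18. Of the 13 transporters and channels 13, 13, 12, 13 and 12 were below it, and of the 6 endothelial genes 3, 6, 4, 3 and 4. Of all 10223 genes 49.2%, 48.1%, 49%, 47.8% and 45.2% were.

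**Figure D5:**
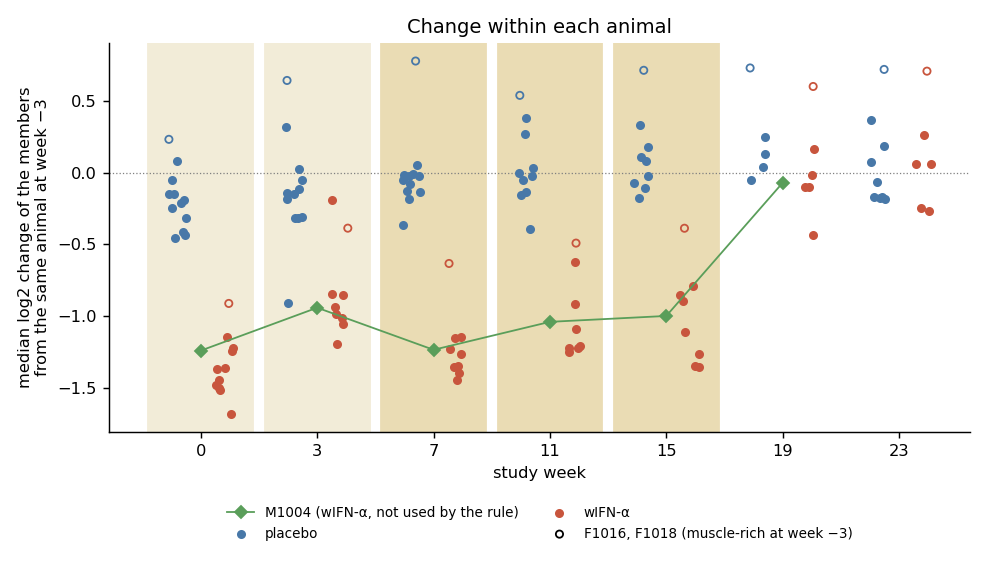
Median log2 change of the members from the same animal at week -3 (y axis) by study week (x axis) in placebo animals (blue), wIFN-α animals (red) and M1004 (green diamonds), with F1016 and F1018 as open points and shading for the weeks under 20 µg (light) and 100 µg (dark). M1004 lies among the wIFN-α animals, with -1.24 at week 0 and -1.0 at week 15, and is back at -0.07 at week 19, while F1016 is the highest placebo point and F1018 lies high among the wIFN-α animals.

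F1013 at week 3 was the exception among the treated biopsies. There 94 of 193 members lay under the placebo mean, where the other wIFN-α biopsies of that week had 163 to 191. ZNF395 stood at 10 CPM in F1013 at week 0, at 95 at week 3 and at 30.3 at week 7, TNFSF4 at 5.10, 68.0 and 17.7, and BEND3 at 2.39, 38.0 and 15. The members and the interferon-stimulated genes of this biopsy thus both stood near placebo levels at week 3 and away from them at weeks 0 and 7.

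Before treatment no member was called between the arms with edgeR (quasi-likelihood, Benjamini-Hochberg), where 0% of genes were called, and 6 members had an unadjusted p under 0.05, against 0.869% of all genes. DESeq2 and limma-voom called 0 as well. At week 19, 4 weeks after the last treatment biopsy, 0 members were called, against 0% of genes, with 45 at an unadjusted p under 0.05 (35 lower and 10 higher), where the share of all genes was 12.6%. The member nearest to a call was PTPRU, a receptor tyrosine phosphatase, with a log2 fold change of -0.78 (SE 0.15, adjusted p = 0.249 by edgeR). limma-voom called 0 and DESeq2 4 members, of which KCNJ8, PTPRU and PCK1 were lower and SLC17A4 higher. The share of all genes that DESeq2 called is not given here, so nothing is read from these 4. The median log2 fold change of the members was -0.16, and that of all genes -0.01.

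At week 23, 0 members were called by edgeR, against 0% of genes, with 28 at an unadjusted p under 0.05 (17 lower and 11 higher, against 16.2% of all genes), and DESeq2 and limma-voom called 0. The median log2 fold change was -0.08, beside -0.05 for all genes, and with 1 animal left out it ran from -0.13 (without F1018) to -0.03 (without F1013). A fit of all 8 weeks together called 1 member, the choline kinase CHKA, and the share of all genes called in that fit is not given here. With these numbers of animals, a p that misses the threshold does not show that the arms were alike.

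Among the 20 members with the lowest ratios, 8 had a log2 fold change above 0 at week 19 and 12 one below 0. Those below include COL1A1 (-1.79), MMP2 (-1.62), COL1A2 (-1.53) and RNF144A (-0.67), none of which was called by edgeR. For 3 members with low ratios, shown because every wIFN-α biopsy lay above the placebo mean, the values at week 19 were these. ZNF395 ran from 115 to 204 CPM (median 180.1) in the 5 placebo animals and from 178 to 303 (median 292) in the 6 treated before, a log2 fold change of 0.64 (SE 0.19, adjusted p = 0.297 by edgeR). BEND3 ran from 31.1 to 156 (median 104) against 137 to 256 (median 187), a log2 fold change of 1.06 (SE 0.35, adjusted p = 0.320 by edgeR). GPAM ran from 59.2 to 1497 (median 680.4) against 827 to 1564 (median 1458), a log2 fold change of 0.81 (SE 0.57, adjusted p = 0.552 by edgeR). None of the 3 passed the test, and the ranges of all 3 overlapped.

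From week -3 to week 23 several members moved within an arm, both outside the treatment period. In the 9 placebo animals with both biopsies, edgeR without pairing by animal called 7 members higher and 24 lower at week 23 (3.65% and 4.89% of genes). In the 6 wIFN-α animals it called 8 higher and 5 lower (2.32% and 1.73%). The week -3 biopsy of F1018, with 16.9% muscle reads, enters this comparison, and without F1018 59 members were called. For that fit the share of all genes is not given here, so the count is a description only. The arms share no animals, and 9 members were called the same way in both, which is 9 of 31 and 9 of 13: BEND3, LOC100506776, GPAM, TMEM150A and ARHGAP4 rose, and RNF144A, UST, CD248 and RHOBTB1 fell. The share of all genes called the same way in both arms is not given here, so the overlap is not read as particular to the members. With the animal as replicate block only CD248 of these 9 was called in both arms, and the other 8 were not. GPAM rose by a log2 fold change of 2.56 (SE 0.53, adjusted p = 0.0112 by edgeR) in placebo and 3.97 (SE 0.49, adjusted p = 0.00125) in wIFN-α animals. With the animal as replicate block the values were 2.0 (adjusted p = 0.0603) and 3.87 (adjusted p = 0.0184), so the placebo call of GPAM was lost.

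CD248 fell by 1.75 on the log2 scale (SE 0.24, adjusted p = 0.0011 by edgeR) in placebo and by 1.85 (SE 0.34, adjusted p = 0.0114) in wIFN-α animals, and its wIFN-α call was lost without F1022 (adjusted p = 0.0869) or M1012 (adjusted p = 0.0535). Of the 24 members that fell in placebo animals 9 were matrix genes, among them EFEMP1, MMP2, COL1A1 and COL1A2, and muscle moved with them, since F1016 at week -3 enters this comparison. COL1A1 had a log2 fold change of -3.08 (adjusted p = 0.0273 by edgeR) with all biopsies and -0.70 (adjusted p = 0.242) without those rich in muscle. With the replicate block, 5 members were called in placebo and 6 in wIFN-α animals, 4 and 5 of them shared with the calls above. Without muscle-rich biopsies 16 and 31 were called, of which 10 and 11 were shared. The shares of all genes called in these fits are not given here, so the member counts are a description only. In the replicate block, CD248 kept its call in both arms (adjusted p = 0.0178 and 0.0104).

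Between the sexes at week -3, 0 members were called by edgeR, where 0.0334% of genes were called in each direction, limma-voom also called 0, and DESeq2 called 4 (DCLK1, SLC25A35, YPEL3 and HMCN2). An unadjusted p under 0.05 was found for 42 members, 40 of them lower in males, against 17.3% of all genes. Muscle moved with this difference, since 4 of the 5 muscle-rich biopsies of week -3, F1016 and F1018 among them, came from females. Without them 37 members had an unadjusted p under 0.05, 25 lower and 12 higher in males, against 19.5% of all genes, and the matrix genes among them fell from 19 to 8. The log2 fold change of COL1A1, male over female, was -3.04 with all biopsies and 0.66 without the muscle-rich ones. In that second fit edgeR called RAB11FIP3 and MLXIPL. For the calls of that fit and of DESeq2 the share of all genes is not given here, and nothing is read from them. KBTBD6, KDR, EMCN, HLF, TEF, PTGER3, GLYCTK, CD248, ETNK2 and UNC45B, and some others named with values, were chosen after their values were seen.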

How the data were processed

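Liver RNA of chronically WHV-infected woodchucks was sequenced after poly(A) selection (TruSeq). Per the submitters' processing notes, CASAVA, FastQC, Bowtie2, SAMtools and DESeq were used; versions were not given in the sources used here. The authors deposited expected counts per gene and run, without normalization (118 of 3368023 entries were fractions), and these estimated counts were rounded after the 203 runs had been summed to 164 biopsies: 149 in the 8 weeks, 7 of M1004 and 8 at other times. The RPKM values that the authors deposited beside them were used only to check the unit. Reads on the virus entered neither totals nor tests. Gene reads per biopsy had a median of 28754894. Study week is the label week minus 1 under treatment and after it.

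Members and lists were chosen with earlier results of these data known, and role groups after the members were seen. Differences were tested in R 4.3.3 with edgeR 4.0.16 (TMM, filter on low counts, quasi-likelihood test, Benjamini-Hochberg over all genes), with DESeq2 1.42.0 and limma 3.58.1 as alternatives; tables were made with Python 3.11.15, numpy 2.4.6, pandas 2.3.3 and matplotlib 3.10.9. On simulated counts of the week 23 groups, 190 of 200 changed genes were recovered and 9 others called, of 14956. The size of the changes set in these counts is not given here. Recovery of changes as small as the median of the members at week 23 was not tested. The time comparisons hold a biopsy of each animal from both weeks. The main fit treated these as separate, and only the replicate block paired them. Deviations from group means of paired biopsies correlated at a median of 0.166 in placebo animals (9 pairs, 6 over 0.1). In wIFN-α animals the median was 0.190 (6 pairs, 4 over 0.1), and between other animals it was -0.012. No 2 biopsies of a group agreed within sampling noise (lowest chi-square per degree of freedom 39.5 over 659 pairs). P-values measure the spread between animals, except in the main fit of the time comparisons, which ignored that each animal enters at both weeks. Named were the 20 members with the lowest mean ratio, up to 4 of each list or symbol family with 3 or more members, the 5 with the highest placebo CPM, the 5 smallest and 5 largest week 0 ratios relative to later weeks, up to 5 members in each direction called at weeks -3, 19 or 23 or by sex, and genes beside the threshold. No genome was used here, so positions are not given.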

Additional observations from a re-analysis of the deposited data

Results flagged for a closer look

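Of 10 groups of biopsies in which the level of the members was tested for a sample far from the others, 3 held one. The groups hold the same animals at several weeks, and the members were chosen from these biopsies. This count is therefore not set against a chance rate. At week 3 the highest wIFN-α biopsy was F1013 with a level of -0.17. In placebo animals M1008 was highest at week 11 with 0.30 and at week 15 with 0.24. The 2 sequencing runs of M1008 at week 15 gave levels of 0.15 and 0.40 and differed by a chi-square per degree of freedom of 136.9, close to the median of 142 between biopsies of different animals of a group.

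Of 40 groups of single genes at week 15, 6 held a value far from the others, on the scale of log2(CPM + 0.5). Among wIFN-α animals F1013 was lowest for LOC100505974 (-0.073), and F1020 was highest for TMEM26 (2.39) and GAS7 (2.26) and lowest for TNFSF4 (3.16). Among placebo animals F1016 was lowest for TMEM26 (2.37) and F1015 was lowest for LCN12 (2.17).

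For 3 of the 20 genes examined, every wIFN-α biopsy lay below the placebo mean at week 15 and above it after treatment. Their log2 ratios to the placebo mean at week 19 were 1.05 for BEND3, 0.62 for ZNF395 and 0.81 for GPAM, and ZNF395 was also higher at week 23 with 0.50. The difference between these weeks was not tested.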

How the results depend on the processing

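Of 193 members, 105 were kept by a placebo minimum of 1 CPM in place of 5; other forms of the rule shared 159 (median over animals) to 193 (prefixes left out first), and leaving out 1 wIFN-α animal shared 173 to 190. Outside treatment, DESeq2 called 4 members at week 19 and 4 by sex, a fit of all 8 weeks called 1 at week 23, and 2 were called by sex without muscle-rich biopsies, where the edgeR fit called none. From week -3 to week 23, placebo animals gave 31 calls, 5 with the animal as replicate block, 10 with limma-voom, 16 without muscle-rich biopsies and 4 to 40 with 1 animal left out (4 without M1009, 40 without M1008). The wIFN-α animals gave 13 calls, 6 with the replicate block, 31 with DESeq2, 31 without muscle-rich biopsies and 3 to 59 with 1 animal left out (3 without F1022, 59 without F1018). The cause was not tested. The shares of all genes called in these alternatives are not given here. Changes of the whole fit and of the members thus cannot be told apart. The other 150 comparisons of a count or set with its alternatives stayed within 1.5 times. Of single values, the log2 fold change of COL1A1 by sex changed direction, from -3.04 with all biopsies to 0.66 without muscle-rich ones. The median by sex over all genes turned as well, from -0.04 to 0.003. Alternatives chosen after seeing the data were the rule without F1013 at week 3, which shared 188 members, the week 3 median without it, the matrix medians without muscle-rich biopsies, and the count of members lower under 100 µg than under 20 µg, which was 141, 129 without F1013 and 83 against week 0 alone. For that count the share of all genes is not given here. With 5 placebo animals at week 19, small differences were not detectable.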

Other observations

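Of the 8 biopsies that the labels place at none of the compared weeks, 5 came from wIFN-α animals. Their member levels were -0.65 in M1006 (labelled week 3), -1.36 in M1007, -1.02 in F1023 and -0.34 in F1020 (all 3 taken at death), and -0.30 in M1002 (labelled week 26). The 3 placebo biopsies stood at 0.21 in M1010, 0.10 in F1017 and -0.15 in F1024. Type I interferon-stimulated genes took 1.75% of reads in M1006, 2.59% in M1007, 0.58% in F1023, 0.30% in F1020 and 0.44% in M1002. ZNF395 stood at 10.6 CPM in M1007, 33.9 in F1023 and 69.3 in F1020, and TNFSF4 at 5.6, 2.7 and 81.7 CPM.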
